A study of Homo sapiens with 3 samples.

Results

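Heme synthesis and iron handling were followed through 10 genes in HaCaT cells, an immortalized human keratinocyte line, after transfection with siRNA against SRSF5. The 10 genes were taken by name from the 60506 genes listed on the chromosomes, using the gene part of each transcript name: ALAS1, UROD, CPOX, PPOX and FECH of heme synthesis, HMOX1 of heme breakdown, and TFRC, HFE, FTH1 and FTL of iron handling. They were selected on summed FPKM in these same libraries, FECH and HFE for their low values with SRSF5 siRNA 2. The values of the 10 genes are thus a description without a test, whether SRSF5 siRNA 2 is set against the control or against SRSF5 siRNA 1.

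There were 3 libraries, all of HaCaT cells given siRNA at 10 nM with a lipid reagent: a control siRNA (labelled wild type), SRSF5 siRNA 1 and SRSF5 siRNA 2 (both labelled SRSF5 knockdown). SRSF5 belongs to the SR family of splicing factors. Each transfection gave 1 library, so the SRSF5 siRNA group holds n = 2 with a different siRNA in each and the control has no replicate. Neither the time between transfection and harvest nor the siRNA sequences are in the sources used, so matches of either siRNA to FECH, HFE or other transcripts were not looked for. RNA came from whole cultures, where fewer cells that express a gene and less RNA per cell cannot be told apart.

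The target itself was lower with both siRNAs. SRSF5 stood at a summed FPKM of 94.1 (control), 44.3 (siRNA 1) and 18.7 (siRNA 2), or 47.1% and 19.9% of the control. FPKM is a read count scaled by transcript length and library depth. The sum runs over all listed transcripts of a gene and grows with their number, since reads shared by isoforms are counted in each, so genes are compared with each other by their highest transcript. Depth was 15861998 to 18321695 equivalents of a 100-base read over the deepest transcripts of all genes, and mitochondrial transcripts held 13.7%, 14.8% and 10.0% of the counted bases, in the order control, siRNA 1, siRNA 2. All 10 keratinocyte markers were measured, with summed levels of 5262 FPKM, 5905 FPKM and 9173 FPKM, and with siRNA 2, 6 were at least 1.5-fold higher and 1 lower (ITGA6), where 13.2% and 10.1% of all 13923 genes tested were. Of 5 melanocyte markers 0 passed a minimum mean of 1 FPKM, and TYR, TYRP1 and MLANA were listed at 0 in the 3 libraries. Of 6 fibroblast markers, with a sum of 2.85 FPKM to 6.39 FPKM, 1 passed, COL1A1, which was higher with both siRNAs (log2 ratios 0.78 and 0.75). Of 6 immune markers 1 passed, CD68, at 28.9 FPKM, 19.6 FPKM and 17.9 FPKM, and the list summed to 18.7 FPKM to 29.7 FPKM. The part of these markers in the values of the 10 genes was not tested.

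Heme is built in a chain of enzymes that starts and ends in the mitochondrion. ALAS1 makes aminolevulinic acid, the entry step outside red cells, the cytosolic steps run through UROD, and CPOX and PPOX oxidize the ring before FECH inserts iron. Iron enters on transferrin through its receptor TFRC, which HFE binds, and is stored in ferritin shells of FTH1 and FTL, while HMOX1 opens the heme ring and frees iron. Cells tune this with iron responsive elements, short RNA hairpins bound by the iron regulatory proteins ACO1 and IREB2 when iron is scarce. Bound elements block translation of ferritin from the 5′ end of its mRNA and protect TFRC mRNA from decay at its 3′ end.

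These hairpins are shown because they tie the storage and uptake genes to iron, and because they lie in RNA that the libraries measured. A search of GENCODE release 29 transcripts looked for an unpaired C, 5 bases, a loop of CAGTG or CAGAG with a following base other than G, and 5 bases that pair with the earlier ones. FTH1 and FTL each held 1 such site in the 5′ untranslated region, TFRC held 5 in the 3′ untranslated region, and no other of the 10 genes held any. Hairpins with a mismatch or an extra base among the 5 pairs are missed by this search. Each site found is printed on the mRNA strand, 5′ to 3′, with the loop in capitals, and coordinates are GRCh38.
FTH1 (chr11:61967574-61967602, minus strand): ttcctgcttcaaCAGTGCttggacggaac
FTL (chr19:48965335-48965363, plus strand): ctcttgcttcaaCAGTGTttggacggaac
TFRC (chr3:196051029-196051057, minus strand): atttatcagtgaCAGAGTtcactataaat
TFRC (chr3:196050979-196051007, minus strand): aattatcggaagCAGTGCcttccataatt
TFRC (chr3:196050575-196050603, minus strand): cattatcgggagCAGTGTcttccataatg
TFRC (chr3:196050510-196050538, minus strand): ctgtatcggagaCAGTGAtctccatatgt
TFRC (chr3:196050463-196050491, minus strand): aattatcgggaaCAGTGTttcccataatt
The ferritin loops stand near the 5′ end and the TFRC loops run along the 3′ untranslated region in the order printed. Of the transcripts listed in the deposited files, 10 of 12 for FTH1, 1 of 1 for FTL and 3 of 15 for TFRC contain the sites.

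The genes spanned a wide range of abundance. By highest transcript in the control, FTH1 stood at 936 FPKM, FTL at 544.0 FPKM and HMOX1 at 235 FPKM, so the storage proteins and the heme-degrading enzyme were far above the rest. TFRC followed at 30.0 FPKM, ALAS1 at 8.26 FPKM and FECH at 6.69 FPKM. CPOX was at 3.09 FPKM, HFE at 2.38 FPKM, UROD at 1.35 FPKM and PPOX at 0.145 FPKM, the lowest of the 10. With siRNA 2 the order below TFRC was another one, as CPOX at 8.21 FPKM came next, then ALAS1 at 4.23 FPKM, UROD at 1.03 FPKM, FECH at 0.919 FPKM, HFE at 0.207 FPKM and PPOX at 0.0977 FPKM. FTL (500 FPKM) and HMOX1 (487 FPKM) lay close together in that library. The highest transcript is not always a coding one. That of FECH is a long noncoding entry of 512 bases, those of TFRC and PPOX are nonsense-mediated decay entries and that of UROD is a retained intron entry. The place of FECH depends on this choice, as its coding transcripts FECH-201 and FECH-209 were at 1.09 FPKM and 4.47 FPKM in the control, below and above CPOX.

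**Figure D1:**
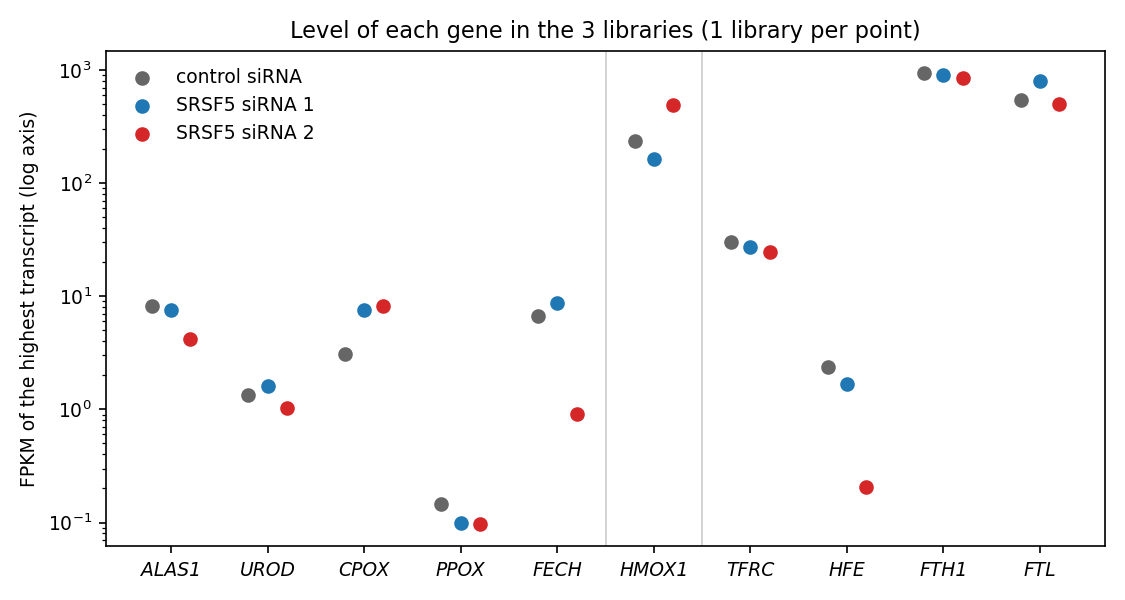
FPKM of the highest transcript of each gene (log axis) in the control, SRSF5 siRNA 1 and SRSF5 siRNA 2 libraries, 1 point per library, with heme synthesis genes on the left, HMOX1 next and iron genes on the right. FECH and HFE are lowest with siRNA 2, CPOX is lowest in the control, and the 3 points of FTH1, and those of TFRC, differ little.

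Among the enzymes of heme synthesis, the last step stood farthest from the control, in the siRNA 2 library. FECH, ferrochelatase (ENSG00000066926.11, chromosome 18, 57544389 to 57586702, minus strand), reached a summed FPKM of 41.7 in the control library, 52.4 under siRNA 1 and 5.91 under siRNA 2. The siRNA 1 library was thus slightly above the control, at 126%, and the siRNA 2 library far below it, at 14.2%. On the scale log2(summed FPKM + 1) the ratios to the control were 0.32 with siRNA 1 and -2.63 with siRNA 2, with counting standard errors of 0.10 and 0.22. Its highest transcript FECH-204 was at 6.69 FPKM, 8.67 FPKM and 0.919 FPKM, which with the same pseudocount of 1 FPKM gives 0.33 and -2.00. The deepest transcript, FECH-201, held 373, 457 and 49.3 read equivalents. Of 13923 genes with a mean summed FPKM of at least 1, FECH had the 4th lowest ratio of siRNA 2 to control, in the contrast from which it was picked.

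FECH was low along its whole length with siRNA 2. All 12 listed transcripts were between 13.5% and 14.9% of the control with siRNA 2 and between 105% and 130% with siRNA 1. Coding, long noncoding, nonsense-mediated decay and retained intron transcripts are among them. No transcript's share of the gene moved by more than 1.02 percentage points in either library. The 1362 bases of FECH-203 outside FECH-204, in 9 pieces, held 93.5, 105 and 13.6 read equivalents, and their coverage was at 118% and 15.8% of the control. These transcripts share reads, so they are not separate measurements.

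CPOX was the member higher with both siRNAs. CPOX, coproporphyrinogen oxidase (ENSG00000080819.9, chromosome 3, 98579446 to 98593648, minus strand), reached a summed FPKM of 8.41 in the control library, 20.9 under siRNA 1 and 22.6 under siRNA 2. Both siRNA libraries lay above the control, at 248% and 268%, and close to each other. The log2 ratios were 1.22 and 1.33 (mean 1.27 ± 0.08, SD, n = 2), with counting standard errors of 0.09 in each. Both ratios share the same control library, so this SD holds no spread of the control, and it is taken over 2 different siRNAs. The highest transcript, CPOX-204, was at 3.09 FPKM, 7.63 FPKM and 8.21 FPKM. The 4 CPOX transcripts ranged from 234% to 271% of control under siRNA 1 and from 254% to 294% under siRNA 2. The noncoding gene AC021660.3 shares 163 bases of exon with CPOX on the same strand and was at 3.89 FPKM, 5.04 FPKM and 5.26 FPKM, so a part of its reads can be those of CPOX.

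ALAS1 passed 1.5-fold, downward, with siRNA 2 and not with siRNA 1. ALAS1 (ENSG00000023330.15, chromosome 3, 52198086 to 52214327, plus strand) had summed levels of 38.0 FPKM (control), 34.5 FPKM (siRNA 1) and 19.6 FPKM (siRNA 2). The siRNA 1 library was near the control and the siRNA 2 library at 51.6% of it, with log2 ratios of -0.14 and -0.92 and counting standard errors of 0.08 and 0.09. The 95% counting interval of the siRNA 1 ratio, -0.29 to 0.01, includes 0. Its 6 transcripts were at 48.6% to 56.0% with siRNA 2, and its deepest transcript held 783, 675 and 372 read equivalents.

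UROD and PPOX were too shallow to show a difference of the size seen. UROD, uroporphyrinogen decarboxylase (chromosome 1, 45010950 to 45015575), had a summed FPKM of 17.6, 20.9 and 13.8. Its log2 ratios of 0.23 and -0.33 have counting intervals that include 0 (-0.33 to 0.79 and -0.95 to 0.30). PPOX, protoporphyrinogen oxidase (chromosome 1, 161166056 to 161178013), had a summed FPKM of 2.28, 2.03 and 1.83 over 27 transcripts. Its deepest transcript held only 5.91, 5.86 and 4.83 read equivalents, so the ratios of -0.11 and -0.21 have counting intervals of -1.76 to 1.54 and -1.94 to 1.52. Opposite-strand genes share exon bases with both, HECTD3 with UROD and B4GALT3 with PPOX. Their overlapping transcripts HECTD3-202 and B4GALT3-207 were at 7.07 FPKM and 2.13 FPKM in the control. These lay above the highest transcripts of UROD (1.35 FPKM) and PPOX (0.145 FPKM). The part of their reads in the UROD and PPOX values was not tested.

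**Figure D2:**
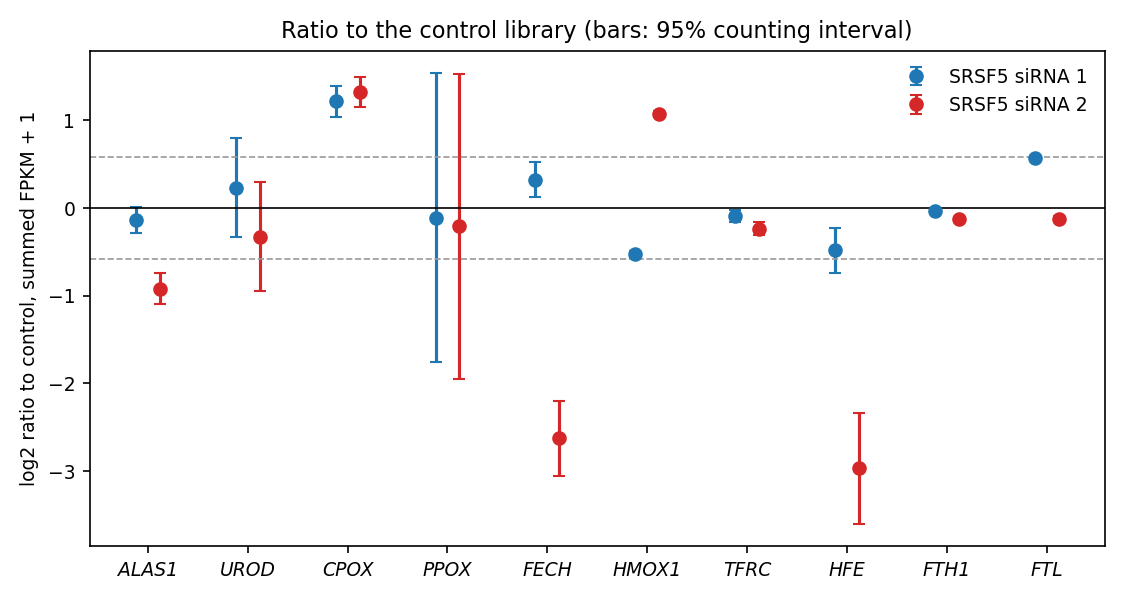
Log2 ratio of summed FPKM plus 1 to the control for each gene in the SRSF5 siRNA 1 and siRNA 2 libraries, with 95% counting intervals as bars and dashed lines at 1.5-fold. CPOX lies above the upper line with both siRNAs, and FECH (-2.63), HFE (-2.96) and ALAS1 (-0.92) lie below the lower line with siRNA 2 only.

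HMOX1 stood on opposite sides of the control in the siRNA libraries. HMOX1 (ENSG00000100292.17, chromosome 22, 35380361 to 35394207, plus strand), the inducible heme oxygenase, reached a summed FPKM of 616 in the control library, 429 under siRNA 1 and 1299 under siRNA 2. It was lowest with siRNA 1 (69.6% of the control) and highest with siRNA 2 (211%), and siRNA 2 stood at 303% of siRNA 1. The log2 ratios were -0.52 and 1.07, with counting standard errors of 0.02 and 0.01 on 10710.0 to 31220.0 read equivalents. All 4 transcripts lay between 69.1% and 70.1% of the control with siRNA 1 and between 207% and 216% with siRNA 2. BACH1, a repressor of HMOX1 that heme inactivates, was at 1.20 FPKM, 1.28 FPKM and 2.35 FPKM by highest transcript, and NFE2L2, which encodes its activator NRF2, at 11.5 FPKM, 8.57 FPKM and 7.95 FPKM. The part of either in the HMOX1 values was not tested.

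HFE had the lowest ratio of siRNA 2 to control of all 13923 genes, again in the contrast from which it was picked. HFE (ENSG00000010704.18, chromosome 6, 26087281 to 26098343, plus strand), a membrane protein of the class I histocompatibility family that binds the transferrin receptor, reached a summed FPKM of 23.6 in the control library, 16.6 under siRNA 1 and 2.15 under siRNA 2. The siRNA 1 library was at 70.3% of the control and the siRNA 2 library at 9.11%. The log2 ratios were -0.48 and -2.96, with counting standard errors of 0.13 and 0.32. By its highest transcript HFE-214, at 2.38 FPKM, 1.67 FPKM and 0.207 FPKM, the ratios with the same pseudocount were -0.34 and -1.49, and from the mean over transcripts the siRNA 2 ratio was -1.22. The pseudocount shortens ratios of such low levels. The deepest transcript, HFE-207, held 303, 194 and 21.4 read equivalents.

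All 14 HFE transcripts were lower in both siRNA libraries, from 59.2% to 75.6% of control under siRNA 1 and from 7.61% to 9.97% under siRNA 2. The largest move of a transcript's share was -0.902 percentage points, for HFE-207 with siRNA 2. Its 4482 bases outside HFE-203 were at 7.02% of the control with siRNA 2, on 14.8 read equivalents against 227 in the control.

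TFRC and FTH1 were at 84.9% to 97.9% of the control in both siRNA libraries. TFRC, the transferrin receptor (ENSG00000072274.13, chromosome 3, 196027183 to 196082096, minus strand), had a summed FPKM of 187, 175 and 158, or 94.0% and 84.9% of the control. The log2 ratios were -0.09 and -0.24, with counting standard errors of 0.04 in each. FTH1, the ferritin heavy chain (ENSG00000167996.16, chromosome 11, 61959718 to 61967634, minus strand), had a summed FPKM of 8060.0, 7894 and 7398, or 97.9% and 91.8% of the control. Its 12 transcripts were at 95.8% to 98.7% with siRNA 1 and 90.2% to 92.5% with siRNA 2. Both of these iron genes were thus lowest with siRNA 2. With siRNA 1 the FTH1 log2 ratio of -0.03 was near the median of all genes tested (-0.025). It was -0.005 after scaling the libraries to a common median, so no direction is given for FTH1 there. BEST1, which overlaps FTH1 by 1267 bases on the opposite strand, was at 0.519 FPKM in its overlapping transcript BEST1-202 in the control.

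FTL, the ferritin light chain, parted from FTH1 with siRNA 1. FTL (ENSG00000087086.15, chromosome 19, 48965309 to 48966879, plus strand), with 1 listed transcript, was at 544.0 FPKM in the control library, 805 FPKM under siRNA 1 and 500 FPKM under siRNA 2. The siRNA 1 library stood above the other two, at 148% of the control, while siRNA 2 was at 91.8%. The log2 ratios of 0.56 and -0.12 have counting standard errors of 0.01 in each, and 0.56 lies just under the 1.5-fold line. When the libraries were scaled to a common median the siRNA 1 ratio was 0.59, just past it.

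Ferritin has many near-identical processed copies in the genome, and the handling of multiply mapping reads is not known, so FTH1 and FTL values are uncertain to that extent. Of 41 listed FTH1P and FTLP copies, 16 passed the expression filter, and all copies together summed to 342 FPKM (control), 386 FPKM (siRNA 1) and 410 FPKM (siRNA 2). FTH1P8 was at 86.5 FPKM, 94.9 FPKM and 98.5 FPKM, so the most abundant copy lay slightly above the control where FTH1 lay slightly below. FTLP3 was at 6.84 FPKM, 12.5 FPKM and 9.38 FPKM, highest with siRNA 1 as FTL was. FTH1P8 and FTLP3 were chosen after their values were seen. By the rule for named genes, the copies with the highest and the lowest mean ratio were FTLP14 (0.18 and 1.13) and FTH1P10 (-0.01 and 0.03).

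A small stretch of FTH1 stood apart from the rest of the gene. The 291 bases of its deepest transcript that lie outside FTH1-208, in 3 pieces between 61964285 and 61967634, held 137, 59.1 and 52.3 read equivalents, and their coverage was at 45.6% and 41.3% of the control. FTH1-208 itself, at 654 FPKM, 643 FPKM and 605 FPKM, was near the control in both siRNA libraries. This region was picked after its values were seen and holds a small part of the 26750.0 read equivalents of that deepest transcript in the control.

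**Figure D3:**
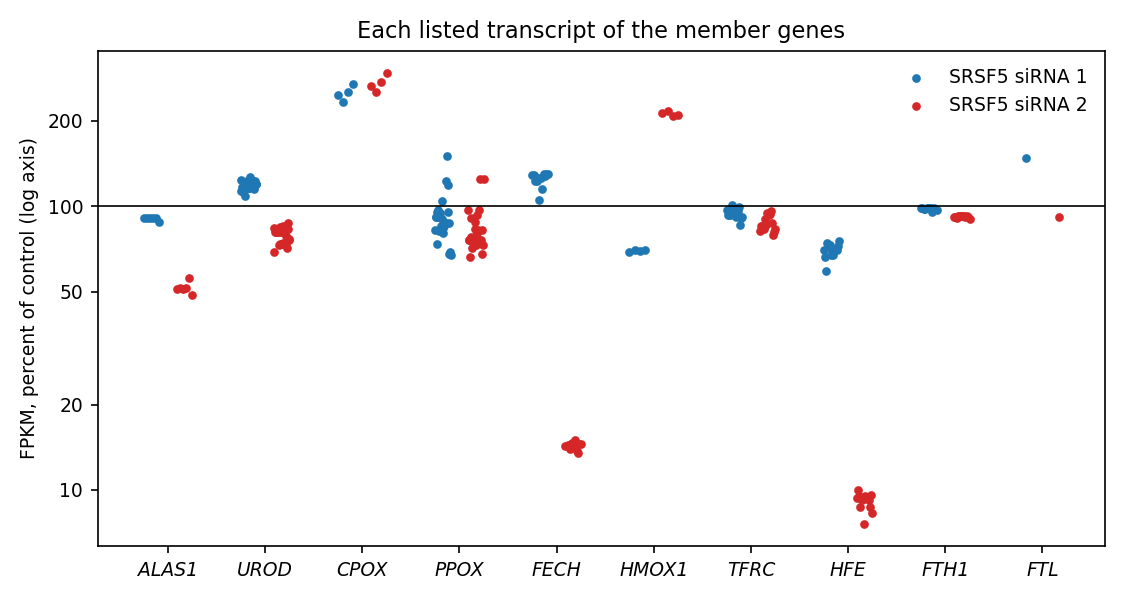
FPKM of every listed transcript as a percent of its control value (log axis), by gene, for SRSF5 siRNA 1 and siRNA 2. The 12 FECH and 14 HFE transcripts with siRNA 2 form tight groups at 13.5% to 14.9% and 7.61% to 9.97%, and the 27 PPOX transcripts scatter on both sides of 100 with siRNA 1.

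Counted over the 10 genes, all of which passed the filter, 1 was at least 1.5-fold higher with siRNA 1 (CPOX) and 0 were lower, where 6.18% and 5.47% of all 13923 genes were. With siRNA 2, 2 were higher (CPOX and HMOX1) and 3 lower (FECH, HFE and ALAS1), where 13.2% and 10.1% of all genes were. Between the siRNA libraries 1 gene was higher with siRNA 2 (HMOX1) and 4 were lower (FECH, HFE, ALAS1 and FTL), beside 13.7% and 10.5% of all genes. In both siRNA libraries together 1 was away the same way (CPOX, higher), beside 4.66% of all genes (3.19% higher and 1.47% lower). The genes were chosen with these contrasts known, so nothing is read from the shares. Their median log2 ratio was -0.06 with siRNA 1 and -0.22 with siRNA 2, beside -0.025 and 0.05 over all genes tested.

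In limma, fitted to the control against both siRNA libraries over all 13923 genes, 0 genes (0.0%) passed 0.05 after Benjamini-Hochberg adjustment. Before adjustment 416 genes had a limma p under 0.05, and with robust moderation 3 genes had an adjusted p below 0.05, none of them a member. Each member had an adjusted p of 1.00 in limma, CPOX included (log2 1.27, SE 0.41). The fit has 1 residual degree of freedom, so its standard errors rest largely on the spread of other genes, as for CPOX, whose own ratios had an SD of 0.08.

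**Figure D4:**
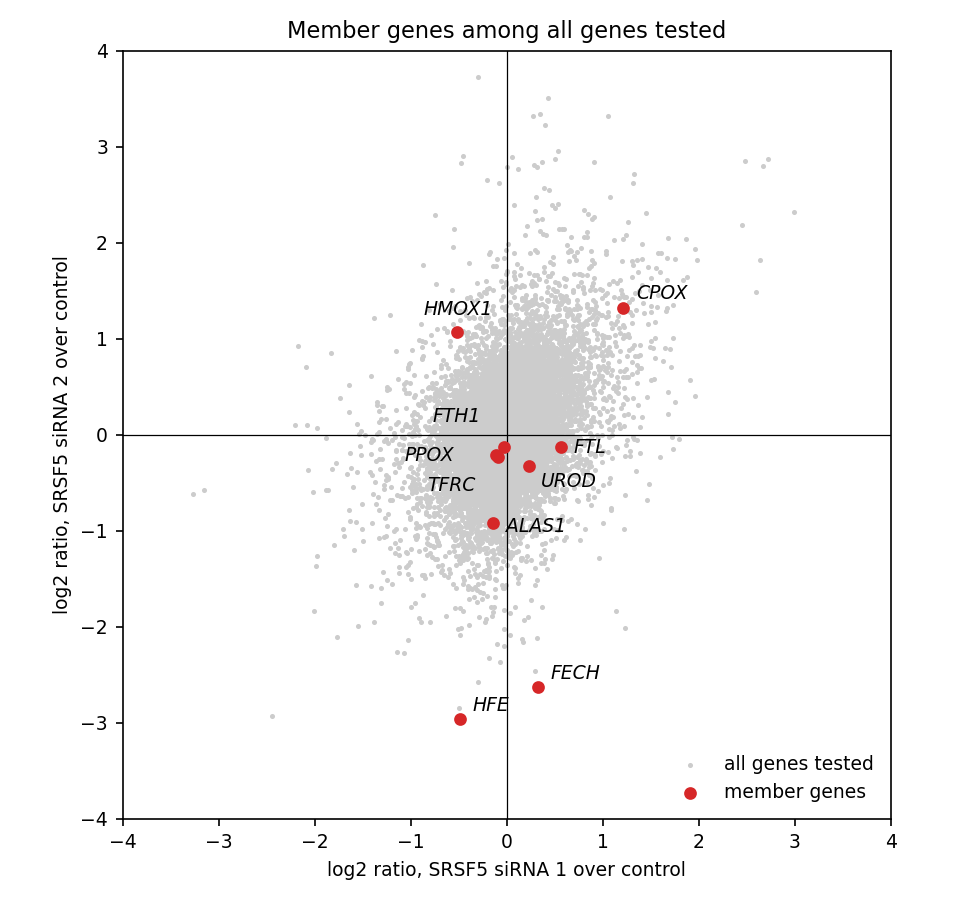
Log2 ratio to the control with SRSF5 siRNA 1 (horizontal) and with siRNA 2 (vertical) for all 13923 genes tested (grey) and the 10 member genes (red). Both axes share the 1 control library. HFE and FECH lie at the bottom edge of the cloud, CPOX (1.22 and 1.33) at the upper right and HMOX1 (-0.52 and 1.07) at the upper left.

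The genes nearest to FECH and HFE in this plot were other genes with low siRNA 2 ratios, since FECH and HFE were picked for theirs. They ranked from 3rd (RTN3) to 13th (DPY19L1) lowest of 13923 genes with siRNA 2, so nothing is read from their pathways. By the distance between the pairs of log2 ratios, which rest on 3 libraries, the nearest to FECH were ADAM9, a membrane protease (0.30 and -2.46), ALG8, a glycosyltransferase of N-glycan assembly (-0.07 and -2.36), and DPY19L1 (0.17 and -2.15). The nearest to HFE were RTN3, a reticulon of the endoplasmic reticulum (-0.50 and -2.84), the retinal reductase RDH11 (-0.29 and -2.57) and the zinc transporter SLC39A10 (-0.19 and -2.33). FECH and HFE were not among each other's nearest genes.

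Stretches of sequence before the start are shown for FECH and HFE, which were low together with siRNA 2, and for CPOX, which was high with both siRNAs. They come from the RefSeq promoter table (GRCh38.p14), in which 8 of the 10 genes matched and FTH1 and HMOX1 did not. Only bases before the outermost listed transcript are printed, on the gene's strand, 5′ to 3′. Capitals mark GGGCGG, the GC box bound by SP1 family factors, and TGACNNNGC, the core of the element bound by NRF2 and BACH1, on either strand.
FECH (chr18:57586703-57586952, minus strand): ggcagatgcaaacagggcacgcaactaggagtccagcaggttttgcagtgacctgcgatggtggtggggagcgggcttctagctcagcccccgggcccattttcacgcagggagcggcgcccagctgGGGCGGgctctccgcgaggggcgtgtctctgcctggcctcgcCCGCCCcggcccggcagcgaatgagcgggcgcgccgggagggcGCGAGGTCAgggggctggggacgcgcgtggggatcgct
HFE (chr6:26087179-26087280, plus strand): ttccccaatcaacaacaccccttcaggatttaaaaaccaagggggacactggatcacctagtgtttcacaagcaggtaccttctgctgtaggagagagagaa
CPOX (chr3:98593649-98593861, minus strand): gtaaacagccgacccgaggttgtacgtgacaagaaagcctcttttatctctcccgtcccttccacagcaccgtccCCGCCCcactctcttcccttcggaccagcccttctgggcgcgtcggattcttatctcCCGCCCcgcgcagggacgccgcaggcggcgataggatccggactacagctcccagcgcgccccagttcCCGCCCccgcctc
In the 250 bases before the RefSeq start, FECH held 2 matches of GGGCGG and 1 of TGACNNNGC, CPOX 3 and 0, and HFE 1 and 0, the HFE match lying beyond the printed stretch. Of 35116 such windows of all genes, 42.6% held GGGCGG and 10.9% held TGACNNNGC. The E-box CACGTG, in 6.34% of all windows, was in none of the 3. A match is a string of letters and not a shown binding site.

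Other genes of the wider pathway lists are given beside these. Counts and medians of a list include any of the 10 genes that belong to it. ALAD, UROS, ALAS2, HMOX2, SLC40A1, NCOA4, ACO1, IREB2 and NFE2L2 were named for their roles, outside the rule and with their values already seen. Of the heme synthesis list, 8 of 9 genes passed the filter, with a median log2 ratio of 0.09 with siRNA 1 and -0.27 with siRNA 2. Of these 8, 5 are members, FECH among them, so the medians reuse values known when the members were chosen. ALAD, which makes porphobilinogen, had log2 ratios of -0.06 and -0.12. UROS, which makes the uroporphyrinogen that UROD uses, had 0.38 and -0.11. ALAS2, the red cell form of the entry enzyme, did not pass the filter, at a summed FPKM of 0.110, 0.103 and 0.104.

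Of the 18 genes of heme transport and breakdown, 1 was at least 1.5-fold higher in both siRNA libraries and 0 lower, beside 3.19% and 1.47% of all genes. With siRNA 2, 2 were higher and 4 lower, beside 13.2% and 10.1%. The member HMOX1 belongs to this list and is among the 2 higher. ABCB10, a mitochondrial transporter that binds the iron importer mitoferrin, was the gene higher in both, at 2.24 FPKM, 5.81 FPKM and 4.52 FPKM by highest transcript (1.28 and 0.88). Other transporters of this list were low with siRNA 2, and were chosen for mention after their values were seen. ABCB6, a porphyrin transporter, was at 8.45 FPKM, 10.6 FPKM and 2.18 FPKM (0.36 and -1.79), a little above the control with siRNA 1 and far below it with siRNA 2, as FECH was. The exporter ABCG2, which carries porphyrins, was at 4.16 FPKM, 3.26 FPKM and 1.88 FPKM (-0.31 and -1.05), and the heme exporter FLVCR1 at 7.36 FPKM, 7.58 FPKM and 4.42 FPKM (0.12 and -0.65). BLVRB, a biliverdin reductase, was at 11.6 FPKM, 16.5 FPKM and 7.27 FPKM (0.49 and -0.66). The other biliverdin reductase gene of the list, BLVRA, was at 10.6 FPKM, 10.9 FPKM and 12.4 FPKM (0.04 and 0.22). Both were named after their values were seen. HMOX2, the constitutive heme oxygenase, had ratios of -0.24 and -0.41. Their counting intervals, -0.65 to 0.17 and -0.84 to 0.01, include 0. HMOX2 thus did not share the higher level of HMOX1 with siRNA 2 (1.07).

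Of 11 iron uptake genes that passed, 2 were at least 1.5-fold higher in both siRNA libraries (CYBRD1 and STEAP4) and 0 lower, beside 3.19% and 1.47% of all genes. With siRNA 2, 4 were higher and 3 lower, beside 13.2% and 10.1%. The 11 include the members TFRC and HFE, and HFE, picked for its low value with siRNA 2, is among the 3 lower. CYBRD1, which reduces iron for uptake, was at 0.512 FPKM, 1.54 FPKM and 1.91 FPKM (1.37 and 1.70, counting standard errors 0.23 and 0.22). STEAP4, a metalloreductase, was at 1.40 FPKM, 2.86 FPKM and 3.68 FPKM (0.78 and 1.09). Both stood lowest in the control, while the related STEAP3 (-0.43 and -0.10) and STEAP2 (-0.14 and -0.74) did not. The metal importer SLC39A14 was at 7.18 FPKM, 9.85 FPKM and 15.0 FPKM (0.42 and 1.05), while SLC11A2, which moves iron out of endosomes, was at 1.83 FPKM, 1.68 FPKM and 0.856 FPKM (0.09 and -0.67). STEAP2, STEAP3, SLC39A14 and SLC11A2 were chosen after their values were seen.

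Of 6 genes of iron storage and export above the filter, the members FTH1 and FTL among them, 0 were 1.5-fold away in both libraries, beside 4.66% of all genes. With siRNA 2, 0 were higher and 1 lower (PCBP1), beside 13.2% and 10.1%. PCBP2 (0.10 and 0.48) had the highest mean ratio and PCBP1 (-0.07 and -0.68) the lowest, and both encode RNA-binding proteins that also deliver iron. The iron exporter SLC40A1 was at a summed FPKM of 0.165, 0.145 and 0.163, under the filter. NCOA4, which takes ferritin to the lysosome, had ratios of -0.09 and -0.27. In the iron sensing list of 11 genes 0 were away in both the same way, beside 4.66% of all genes. With siRNA 1, 0 were higher and 1 lower, beside 6.18% and 5.47%. With siRNA 2, 1 was higher and 1 lower, beside 13.2% and 10.1%. BACH1 (0.30 and 1.05) was at the top by mean ratio and EPAS1, a hypoxia-inducible factor (-0.47 and -1.28), at the bottom. The iron regulatory protein genes were ACO1 at 1.45 FPKM, 1.37 FPKM and 1.49 FPKM and IREB2 at 10.4 FPKM, 14.2 FPKM and 9.77 FPKM by highest transcript. ACO1 was near the control in both siRNA libraries, and IREB2 was highest with siRNA 1. With siRNA 2 its summed ratio was above 0 and that of its highest transcript below (0.16 and -0.08), so no direction is given.

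**Figure D5:**
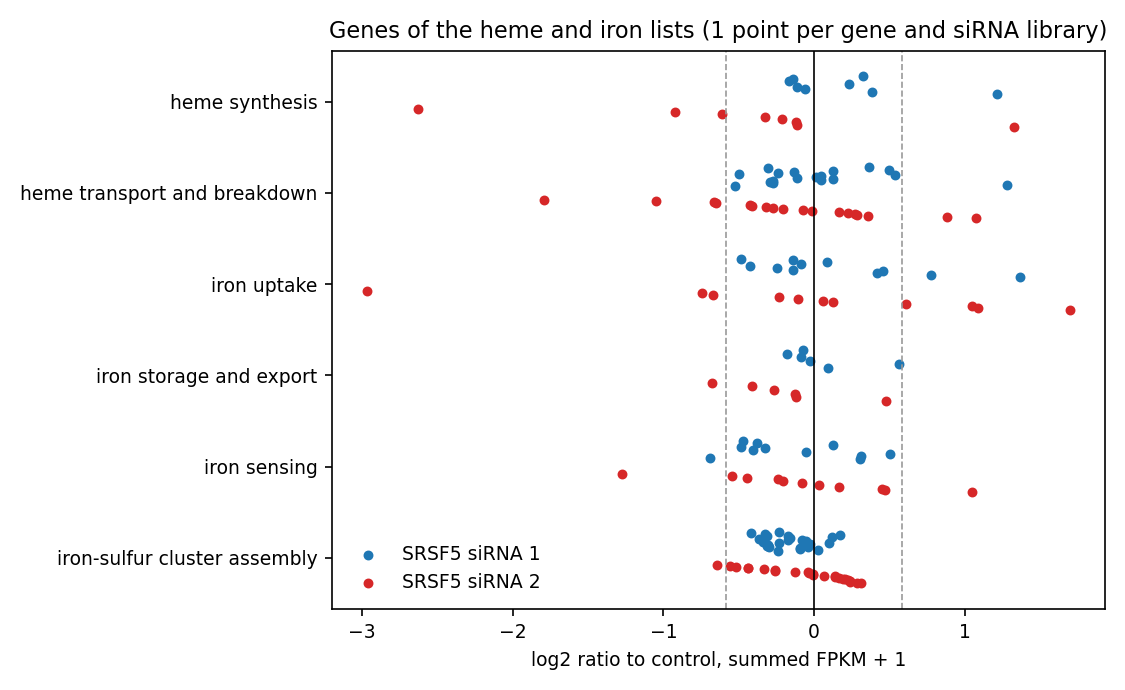
Log2 ratio to the control of each gene above the filter in 6 heme and iron lists, 1 point per gene for SRSF5 siRNA 1 and for siRNA 2, with dashed lines at 1.5-fold. The points farthest to the left are HFE (-2.96), FECH (-2.63) and ABCB6 (-1.79) with siRNA 2, and 1 of 24 iron-sulfur cluster genes passes a line with siRNA 2 and 0 with siRNA 1.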

How the data were processed

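RNA from 3 HaCaT samples was sequenced, and for each library the authors deposited an FPKM value per transcript for 247012 listed transcripts, with transcript lengths, per the file headers. No aligner or counter is named in those headers or in the labels, and the submitters' processing notes name GRCh38.p12, GRCm38 and mm10 without a role. FPKM multiplied by length gave whole numbers of overlapping bases for 100.0% of values (tolerance 0.05), with a base counted in each transcript it overlaps. Read equivalents are these bases divided by 100, and counting standard errors and 95% intervals from the deepest transcript cover counting error only.

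FPKM was summed per gene on the chromosomes, and 13923 genes with a mean sum of at least 1 were compared as log2(sum + 1). A gene counted as higher or lower at 1.5-fold or more. The control was set against both siRNA libraries with limma 3.58.1 in R 4.3.3, using Benjamini-Hochberg adjustment and tested on simulated data. The limma p-values rest on the difference between the 2 siRNA libraries and on the spread of other genes, and hold no spread of the control. The other steps used Python 3.11.15, pandas 2.3.3, numpy 2.4.6 and matplotlib 3.10.9. The 10 genes, the lists and the marker sets were chosen with earlier results of these data known. Named were the 10 genes and SRSF5, the genes of each list at least 1.5-fold away to the same side with both siRNAs (otherwise the highest and the lowest mean ratio), the 3 genes nearest to FECH and to HFE, and overlapping genes, with additions identified in the text. Values of 1 gene of the heme synthesis list are not reported here. Groups of 1 and 2 libraries are too small for a search for outlying samples.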

Additional observations from a re-analysis of the deposited data

How the results depend on the processing

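With 1 library per siRNA and 1 control, no difference has a replicate check, and depth limits PPOX and UROD. Over 6 alternative settings the 30 log2 ratios of the 10 genes gave 180 values. Of these, 156 lay within the 95% counting interval of the ratio as reported, 24 lay outside it and 0 changed sign. The ratio of FECH with siRNA 2 ranged from -2.80 to -1.58 and that of HFE from -3.40 to -1.22, lowest in size with the mean over transcripts, where the pseudocount weighs more. Using the highest transcript, 394 genes were 1.5-fold away in both siRNA libraries (649 as reported) and 1055 with siRNA 1 (1623 as reported). With the mean over transcripts the counts were 287 in both, 814 with siRNA 1, 1812 with siRNA 2 (3244 as reported) and 1877 between the siRNA libraries (3378 as reported). A 2-fold threshold gave 141, 421, 1021 and 953 in the same order, and a pseudocount of 0.1 FPKM gave 992 in both. Median scaling brought the members away with siRNA 1 from 1 to 2 by adding FTL. Leaving out each siRNA library in turn gave 1623 to 3244 genes and 1 to 5 members, since a gene then had to pass in 1 library only, with 5 members when the siRNA 1 library was left out. Without the expression filter limma called 1343 of 60506 genes, 0 of them members, and with robust moderation 3, against 0 as reported, and the cause was not tested. No paired analysis was possible because the label of the control library carries no replicate number and the control has 1 library.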

Other observations

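Iron-sulfur cluster assembly is the other large use of mitochondrial iron. All 24 genes of the list passed the filter, with a median log2 ratio of -0.17 with siRNA 1 and -0.01 with siRNA 2, beside -0.025 and 0.05 over all genes tested. In both libraries 0 were at least 1.5-fold away the same way, beside 4.66% of all genes. FDX1, a ferredoxin gene, was the 1 gene of the list at least 1.5-fold lower with siRNA 2 (10.1% of all genes were). It was at 6.56 FPKM in the control, 5.42 FPKM with siRNA 1 and 3.83 FPKM with siRNA 2 (-0.24 and -0.65). The other ferredoxin gene of the list, FDX2, had ratios of -0.17 and -0.04. FDX1 and FDX2 were named after their values were seen. IBA57 had the highest mean ratio of the list (0.03 and 0.29) and CIAO3 the lowest (-0.42 and -0.56).

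Of 10 erythroid markers 4 passed the filter, all of them hemoglobin genes. HBG2, a fetal globin gene, had a summed FPKM of 22.0 (control), 19.8 (siRNA 1) and 17.8 (siRNA 2), and HBG1 had 13.5, 13.0 and 12.1. HBB was listed at 0 in the control and siRNA 2 libraries. HBG1 and HBG2 are near-identical copies, so their separate levels are uncertain, and their ratios to the control stayed under 1.5-fold in both siRNA libraries.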
